A study of Saccharomyces cerevisiae with 24 samples.

Results

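Two-colour arrays of budding yeast RNA were used to set 2 alleles of DOT4, dot4-1 and dot4-5, against each other. Strain UCC6406 carried dot4-1-6Myc and strain UCC6407 carried dot4-5-6Myc. Each was hybridised against the same reference strain, UCC6408, which carried DOT4-6Myc, so that both alleles and their reference had the 6Myc tag, and every strain was grown in YEPD, a rich glucose medium. Of 24 arrays in the series, 12 belonged to these alleles: 6 arrays of dot4-1 and 6 of dot4-5, chosen by their labels. Each allele had 3 numbered sets, and each set had 1 array with the allele in Cy5 and 1 with it in Cy3. The other 12 arrays compared a dot4 null strain (UCC6435) and a strain with untagged DOT4 (UCC6432) with the same reference. They entered the fit to estimate the spread between sets, and the null strain also set the direction of the ratios. The labels do not state what the alleles change in the protein, which other markers the strains carry or whether sets were separate cultures. Each allele was measured in 1 strain, so an effect of the allele cannot be told apart from another difference between the 2 strains.

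DOT4, named UBP10 in the reference annotation (YNL186W), encodes a ubiquitin protease that removes ubiquitin from histone H2B. Genes near yeast telomeres and at the silent mating loci are held in a repressed state by the Sir proteins, and DOT4 is known as a gene whose overexpression or loss disturbs this silencing. Ubiquitin on H2B is placed by Bre1 and Rad6 and is needed for methylation of histone H3 by Dot1 and by the Set1 complex.

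The values below are log2 ratios of an allele to DOT4-6Myc, averaged over the 2 dye orders of a set, and a difference of 1 is a factor of 2. A difference is dot4-1 minus dot4-5, tested with limma over 6195 genes of 6205. If the dye order of the labels is followed, all 6 null arrays place UBP10 above the reference. All 24 arrays were therefore turned, and the direction given is the likely one: in the order of the labels every sign is exchanged.

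The dot4-1 strain stood far from the reference across much of the genome, and the dot4-5 strain stood close to it. The median size of a gene's mean ratio was 0.223 in dot4-1 and 0.0273 in dot4-5, while the median SD over 3 sets was 0.0700 and 0.0445. Against DOT4-6Myc, 4545 genes (73.4%) passed an adjusted p of 0.05 in dot4-1 and 64 (1.03%) in dot4-5. Between the alleles, 3779 genes (61%) passed, of which 1836 (29.6% of those tested) were higher in dot4-1 and 1943 (31.4%) lower. In 4435 of 6185 genes with every set measured (71.7%), the 3 sets of one allele lay wholly above those of the other. These shares are the background against which each gene group below is read.

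Differences of at least 2-fold were fewer and lay mostly in one direction. There were 90 such genes, 12 higher and 78 lower in dot4-1. In 71 of the 90 the dot4-5 mean was within 0.2 of 0. The median size of the ratio over the 90 genes was 1.23 in dot4-1 and 0.0963 in dot4-5.

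**Figure D1:**
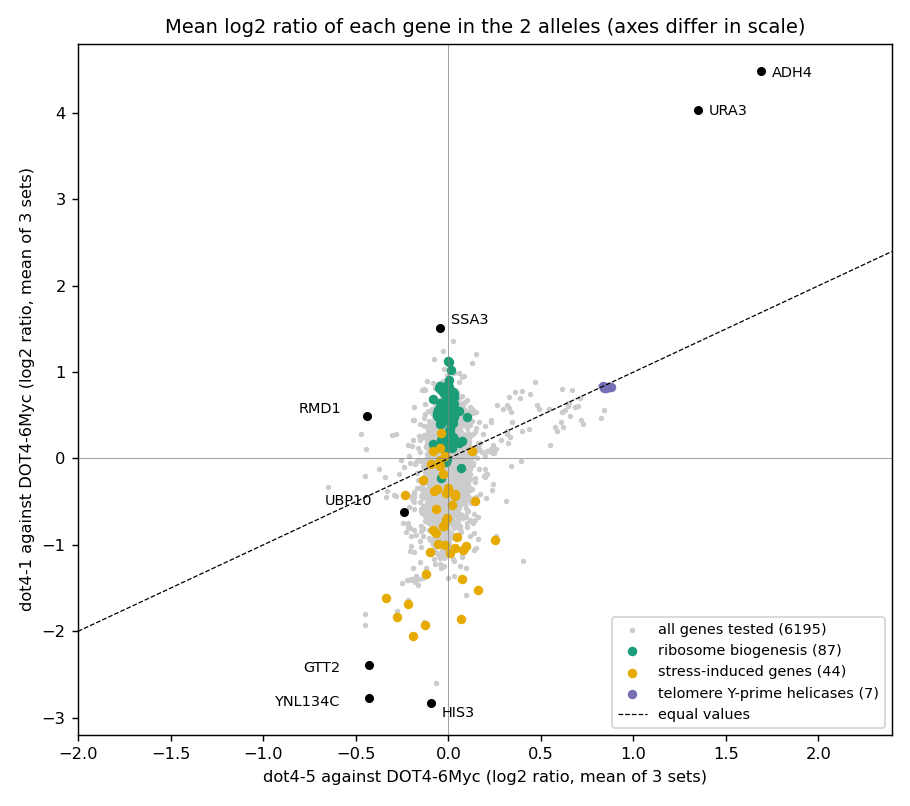
Mean log2 ratio to DOT4-6Myc of each gene in dot4-5 (horizontal axis) and dot4-1 (vertical axis), with named genes marked. The axes differ in scale. Most genes spread along the dot4-1 axis and stay near 0 in dot4-5, while ADH4 and URA3 are high in both.

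UBP10 itself was lower in dot4-1 than in dot4-5. Its 3 sets were at -0.57, -0.60 and -0.68 in dot4-1 and at -0.21, -0.25 and -0.26 in dot4-5, so the alleles did not overlap. Against the reference, dot4-1 passed the test (adjusted p = 7.61e-05) and dot4-5 did not (adjusted p = 0.817). The spread behind both p-values was shared by 4 strains. The SD of UBP10 over 3 sets was 0.367 in the strain labelled null, 0.054 in dot4-1 and 0.025 in dot4-5. The difference was -0.38 (SE 0.13, 95% interval -0.67 to -0.09), a 1.30-fold lower ratio in dot4-1 with an adjusted p of 0.0257. For comparison, the strain labelled null stood at -4.69. The call was lost with either dye order alone and in 5 of 6 fits that left out 1 set. It was kept with the 2 alleles fitted alone (SE 0.044, adjusted p = 0.00023). The difference was 0.10 when every array was scaled to the same spread.

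The genes on either side of UBP10 were both higher in dot4-1. MRPL19, a mitochondrial ribosomal protein gene, was at 0.75, 0.47 and 0.56 in dot4-1 and between 0.04 and 0.07 in dot4-5. Its difference was 0.54 (adjusted p = 0.000171). SWT21, which has a role in messenger RNA splicing, was at 0.25, 0.26 and 0.21 in dot4-1 and between -0.10 and 0.01 in dot4-5, a difference of 0.26 (adjusted p = 0.00274). In the untagged DOT4 strain, MRPL19 was at -1.10, further from the reference than in either allele, and SWT21 was at -0.10.

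The largest positive difference was that of ADH4, which encodes an alcohol dehydrogenase and lies close to the left telomere of chromosome VII. Its sets were at 4.47, 4.48 and 4.497 in dot4-1 and at 1.79, 1.70 and 1.59 in dot4-5. Both alleles were thus well above the reference, and dot4-1 was a further 6.92-fold higher (difference 2.79, SE 0.29, 95% interval 2.17 to 3.41, adjusted p = 1.20e-05). The strain labelled null was at 1.07 and the untagged DOT4 strain at 0.84, each below both alleles. The difference was 2.79 with the alleles in Cy5 and 2.80 with them in Cy3.

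URA3, the uracil synthesis gene that serves as a selectable marker, followed the same order. It was at 3.83, 3.98 and 4.31 in dot4-1 and at 1.496, 1.22 and 1.34 in dot4-5. The strain labelled null was at 0.60 and the untagged DOT4 strain at 0.49. The difference was 2.69 (95% interval 2.08 to 3.30), or 6.45-fold, with an adjusted p of 1.32e-05. As background, strains built to follow telomeric silencing often carry URA3 inserted at the ADH4 locus beside a new telomere; the labels do not state whether these strains do. When every array was scaled to the same spread, both differences changed sign, to -0.69 for ADH4 and -0.27 for URA3, because the narrower dot4-5 arrays are enlarged most by that scaling.

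The genes beside ADH4 were measured as well. ZRT1, the high-affinity zinc transporter gene and the next gene towards the centromere, was at 0.46, 1.04 and 0.89 in dot4-1 and between -0.09 and -0.02 in dot4-5, a difference of 0.84 (adjusted p = 0.000293). Of 12 genes of zinc homeostasis, ZRT1 and ADH4 among them, 4 were higher and 6 lower in dot4-1. MNT2, the next gene towards the telomere, was named after its values were seen. It was at -0.33, -0.58 and -0.40 in dot4-1 and at -0.42, -0.05 and 0.02 in dot4-5, which overlap, and its difference of -0.29 did not pass (adjusted p = 0.416).

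HIS3, a histidine synthesis gene and marker, had the largest negative difference of all genes tested. It was at -2.68, -2.88 and -2.94 in dot4-1 and at -0.17, -0.03 and -0.10 in dot4-5. The difference of -2.74 (95% interval -2.96 to -2.51, adjusted p = 2.51e-08) is a 6.66-fold lower ratio in dot4-1. HIS3 was at -1.72 in the strain labelled null and at 0.87 in the untagged DOT4 strain. YOR203W, an open reading frame without an entry in the annotation, moved with it, with a difference of -2.53. By its name it follows HIS3 (YOR202W), and the 2 may share signal on the array.

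Of the other marker genes, TRP1 and LEU2 were lower in dot4-1 and 3 did not pass. TRP1 was at -0.85, -1.02 and -1.03 in dot4-1 and between -0.03 and 0.04 in dot4-5 (difference -0.97, adjusted p = 8.5e-07), with the strain labelled null at -0.18. LEU2 was at -0.77, -0.99 and -1.05 against -0.07, 0.02 and -0.08 (difference -0.89, adjusted p = 8.09e-06). ADE2 was above the reference in both alleles, at 0.52, 0.59 and 0.75 in dot4-1 and at 0.48, 0.47 and 0.48 in dot4-5. These sets did not overlap, and the difference of 0.14 did not pass (95% interval -0.09 to 0.37, adjusted p = 0.256). LYS2 (difference -0.25, 95% interval -0.71 to 0.21, adjusted p = 0.322) and MET17, also called MET15 (difference 0.15, adjusted p = 0.0595), did not pass either. With the 2 alleles fitted alone, LYS2 and MET17 passed (adjusted p 0.0321 and 0.0354). MET17 also passed with a block for the set number, with separate arrays and without dot4-1 set 1 (adjusted p 0.0465, 0.0467 and 0.0190). Over the 7 marker genes, 1 was higher and 3 were lower in dot4-1. The labels do not state whether a marker differs in its copy or construct between these strains.

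At the very ends of the chromosomes, part of the genes stood above the reference in both alleles. Of the 64 genes that differed from the reference in dot4-5, 57 were higher and 38 were among the 10 genes nearest to a telomere, each of these 38 above the reference. Of those 64, 35 showed no call between the alleles, 14 were higher in dot4-1 and 15 lower, and of the 38 at the ends, 28 showed no call, 2 were higher and 8 lower. For the 55 measured genes in the first 2 places from an end, the median ratio was 0.54 in dot4-1 and 0.24 in dot4-5, and 12 were higher and 9 lower in dot4-1. In dot4-5, 25 of these 55 genes were above the reference by the test and 0 below by limma's test, against 0.92% of all genes above. The 25 include the 7 YRF1 genes and YJL225C, YBL113C and YEL077C, described below, which are near-identical copies whose probes can share signal. The counts and medians at the ends are therefore not counts and medians of separate measurements. In dot4-1, 37 were above and 5 below, against 35.9% of all genes above. Over the 294 outermost genes, 135 were above and 80 below the reference in dot4-1.

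The medians were lower a few genes inward. In places 3 to 5 from an end (88 genes), the medians were 0.17 in dot4-1 and 0.04 in dot4-5, with 21 genes higher and 21 lower. Between the alleles, 74 of these 294 genes were higher and 77 lower in dot4-1, a median difference of -0.03. The 5386 other annotated nuclear genes had 1672 higher and 1655 lower and a median difference of 0.00108. No chromosome as a whole stood apart: the median differences of the 16 nuclear chromosomes ran from -0.066 to 0.039.

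**Figure D2:**
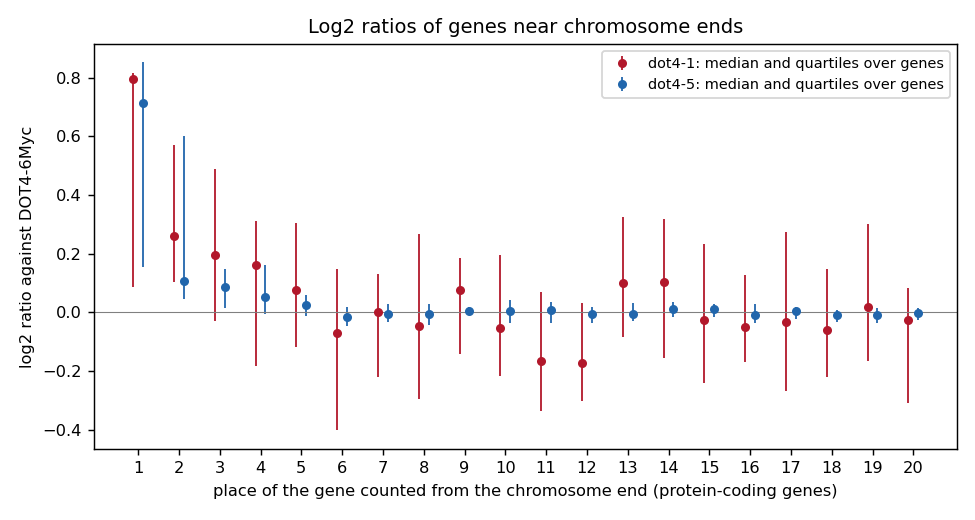
Median log2 ratio to DOT4-6Myc by place of the gene from the chromosome end, for dot4-1 and dot4-5. Both alleles are highest at the outermost gene, with medians of 0.80 in dot4-1 and 0.71 in dot4-5. The outermost genes include near-identical copies whose probes can share signal.

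The YRF1 genes, which encode helicases of the telomeric Y' element, were above the reference in both alleles. YRF1-1 was at 0.89, 0.78 and 0.81 in dot4-1 and at 0.79, 0.96 and 0.84 in dot4-5. YRF1-6 was at 0.89, 0.79 and 0.86 in dot4-1 and at 0.80, 0.87 and 0.83 in dot4-5. The sets of the alleles overlap in both genes. Over the 7 YRF1 genes, means ran from 0.81 to 0.84 in dot4-1 and from 0.83 to 0.88 in dot4-5. None of the 7 passed between the alleles (adjusted p 0.509 to 0.912) and the 95% intervals of their differences reached from -0.24 to 0.18, but with arrays scaled to a common spread 7 of the 7 were lower in dot4-1, with a median of -1.18. These copies are nearly identical, so that probes can share signal and the 7 values are not separate measurements. The same holds for the related open reading frames YJL225C, YBL113C and YEL077C, with differences of -0.05, -0.05 and -0.04. Other open reading frames at chromosome ends, named after their values were seen, did differ. YFL066C was at 0.56, 0.39 and 0.46 in dot4-1 and at 0.68, 1.03 and 0.77 in dot4-5 (difference -0.35, adjusted p = 0.0108). YHR218W, YBL112C and YBL111C differed by -0.33, -0.28 and -0.28 (adjusted p 0.0204, 0.0152 and 0.0290). Without dot4-5 set 2, none of YFL066C, YHR218W, YBL112C and YBL111C passed (adjusted p 0.0544 for YFL066C). YBL109W, which the annotation table does not list, went the other way, at 0.83, 0.82 and 1.0005 in dot4-1 and at 0.49, 0.50 and 0.41 in dot4-5 (difference 0.41, adjusted p = 0.000771, but -0.41 with arrays scaled to a common spread).

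Of 11 COS genes, a subtelomeric family of membrane proteins, 1 was lower and 0 higher in dot4-1 by limma's test. The median ratio of the 11 was 0.09 in dot4-1 and 0.23 in dot4-5. COS10 passed, with sets at -0.18, -0.21 and -0.23 in dot4-1 and at -0.07, 0.08 and 0.08 in dot4-5 (difference -0.24, adjusted p = 0.0077). COS5 was at 0.15, 0.04 and 0.01 in dot4-1 against 0.22, 0.29 and 0.23 in dot4-5, which do not overlap, yet it did not pass (adjusted p = 0.0963). COS2 (difference -0.18, adjusted p = 0.0927) and COS6 (difference -0.15, adjusted p = 0.0775) did not pass either. The differences of all 11 were below 0, and 5 of the 11 passed when the 2 alleles were fitted alone and 8 with arrays scaled to a common spread.

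Another family, which lies only in part at chromosome ends, was mostly higher in dot4-1. Of 23 PAU genes, which encode cell wall mannoproteins induced without oxygen, 19 were higher and 4 lower in dot4-1, and the median ratio was 0.56 in dot4-1 and 0.09 in dot4-5. With arrays scaled to a common spread 8 were higher and 2 lower, with a median of 0.14. PAU5 was at 0.50, 0.78 and 0.89 in dot4-1 and between -0.04 and 0.07 in dot4-5 (difference 0.72, adjusted p = 2.69e-05). PAU17 was at 0.58, 0.78 and 0.79 against -0.03, -0.02 and 0.10 (difference 0.70, adjusted p = 1.28e-05). PAU5 and PAU17 are at places 46 and 39 counted from a chromosome end, outside the 10 outermost genes. The PAU genes are also close copies of each other. Among 11 genes of the DDI, SNZ, SNO and THI5 families, 6 were higher in dot4-1 and 0 lower by limma's test, and 0.25 was the median difference. DDI2 and DDI3, a near-identical pair that encode cyanamide hydratases, were higher in dot4-1: DDI2 at 1.20, 1.10 and 1.33 in dot4-1 and at 0.11, 0.16 and 0.18 in dot4-5, and DDI3 with a difference of 0.98. Neither passed against the reference in dot4-5.

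Beyond ADH4 and URA3, the largest positive differences were those of SSA3 and RRN3. SSA3, a stress-inducible Hsp70 chaperone gene, was at 1.45, 1.42 and 1.68 in dot4-1 and between -0.08 and -0.02 in dot4-5. The difference of 1.56 is 2.95-fold (adjusted p = 3.77e-08). RRN3, which encodes the factor that recruits RNA polymerase I to ribosomal DNA, was at 1.47, 1.26 and 1.34 in dot4-1 and between 0.0040 and 0.04 in dot4-5 (difference 1.33, adjusted p = 2.69e-08). The strain labelled null was at 1.14 for this gene.

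The remaining genes among the 15 largest positive differences ran from 0.98 to 1.27. FRK1, a protein kinase gene, differed by 1.27 and CHA1, the catabolic serine deaminase gene, by 1.23. SER3, a serine synthesis gene, was at 1.00, 1.05 and 1.07 in dot4-1 and at -0.03, -0.02 and -0.03 in dot4-5, a difference of 1.07. SIT1, a transporter of iron-bound siderophores, differed by 1.01 and BIO4, a biotin synthesis gene, by 0.98. TRF5, a poly(A) polymerase gene of nuclear RNA surveillance, was at 1.12, 0.98 and 0.92 in dot4-1 against 0.02 in each dot4-5 set. In each of these genes the 3 dot4-1 sets lay above the 3 dot4-5 sets, which is how they were chosen.

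**Figure D3:**
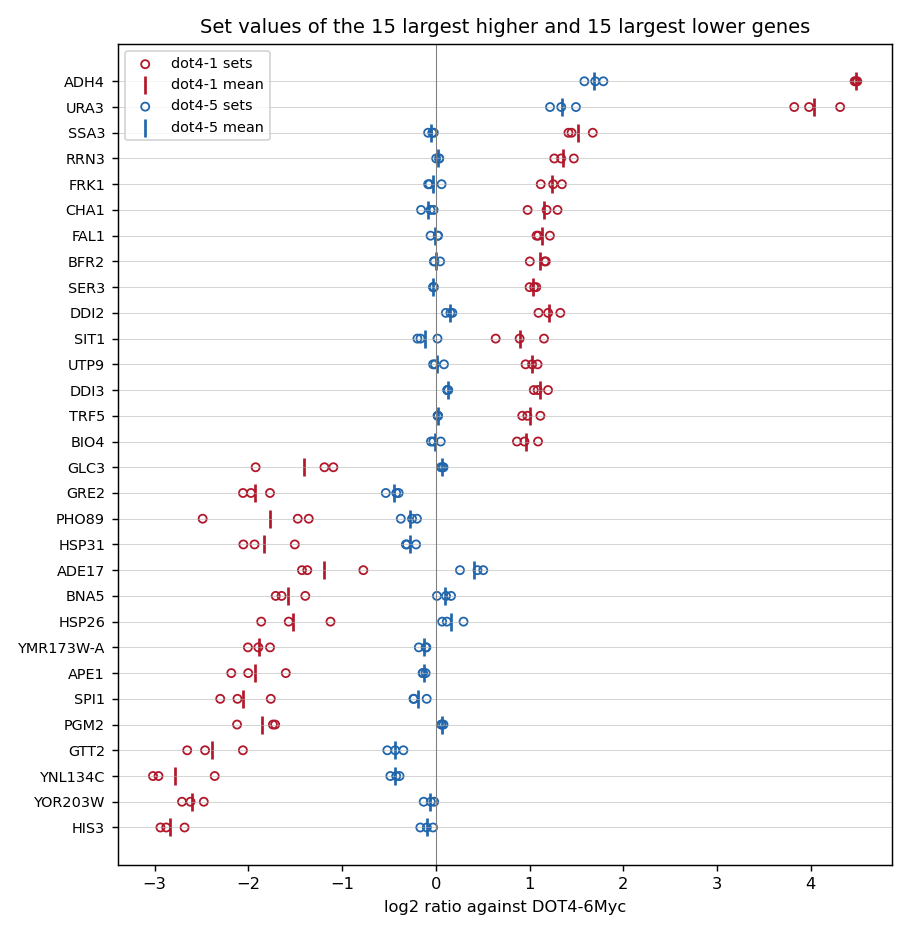
Log2 ratio to DOT4-6Myc in each of 3 sets of dot4-1 and dot4-5 for the genes with the largest differences in either direction. For each gene the sets of the alleles do not overlap, and the dot4-1 sets of PHO89 lie far apart, at -2.49, -1.36 and -1.47.

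Genes of ribosome biogenesis, which process ribosomal RNA and assemble the subunits, were higher in dot4-1 as a group. Of 87 measured members, 79 were higher and 1 lower, and the median ratio was 0.52 in dot4-1 with a median difference of 0.51, against -0.01 over all genes. FAL1, an RNA helicase gene of small-subunit maturation, was at 1.08, 1.22 and 1.09 in dot4-1 and between -0.06 and 0.02 in dot4-5 (difference 1.13, adjusted p = 2.04e-06). BFR2 and UTP9, of the small-subunit processome, differed by 1.11 and 1.01. REI1 and MAK16, of large-subunit maturation, differed by 0.90 and 0.88. Genes of RNA polymerase I and its factors moved the same way, with 12 of 17 higher, 0 lower by limma's test and a median difference of 0.24. The polymerase subunit genes RPA34 and RPA43 differed by 0.80 and 0.73.

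The genes of the ribosomal proteins themselves went the other way. Of 137, 93 were lower and 10 higher in dot4-1, with a median difference of -0.23 (2 higher and 44 lower with arrays scaled to a common spread). RPS22B was at -0.62, -0.72 and -0.87 in dot4-1 and between -0.03 and 0.06 in dot4-5 (difference -0.74, adjusted p = 1.28e-05), and RPP2A, a stalk protein gene, differed by -0.60. The counts varied with the dye: 18 were higher and 59 lower with the alleles in Cy5, and 2 higher and 100 lower with them in Cy3. Many of these genes are pairs of near-identical copies whose probes can share signal. DOT6, which encodes a repressor of ribosome biogenesis genes, was at -1.18, -1.17 and -1.06 in dot4-1 and at 0.02, 0.11 and 0.10 in dot4-5, a difference of -1.21 (adjusted p = 3.77e-08).

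**Figure D4:**
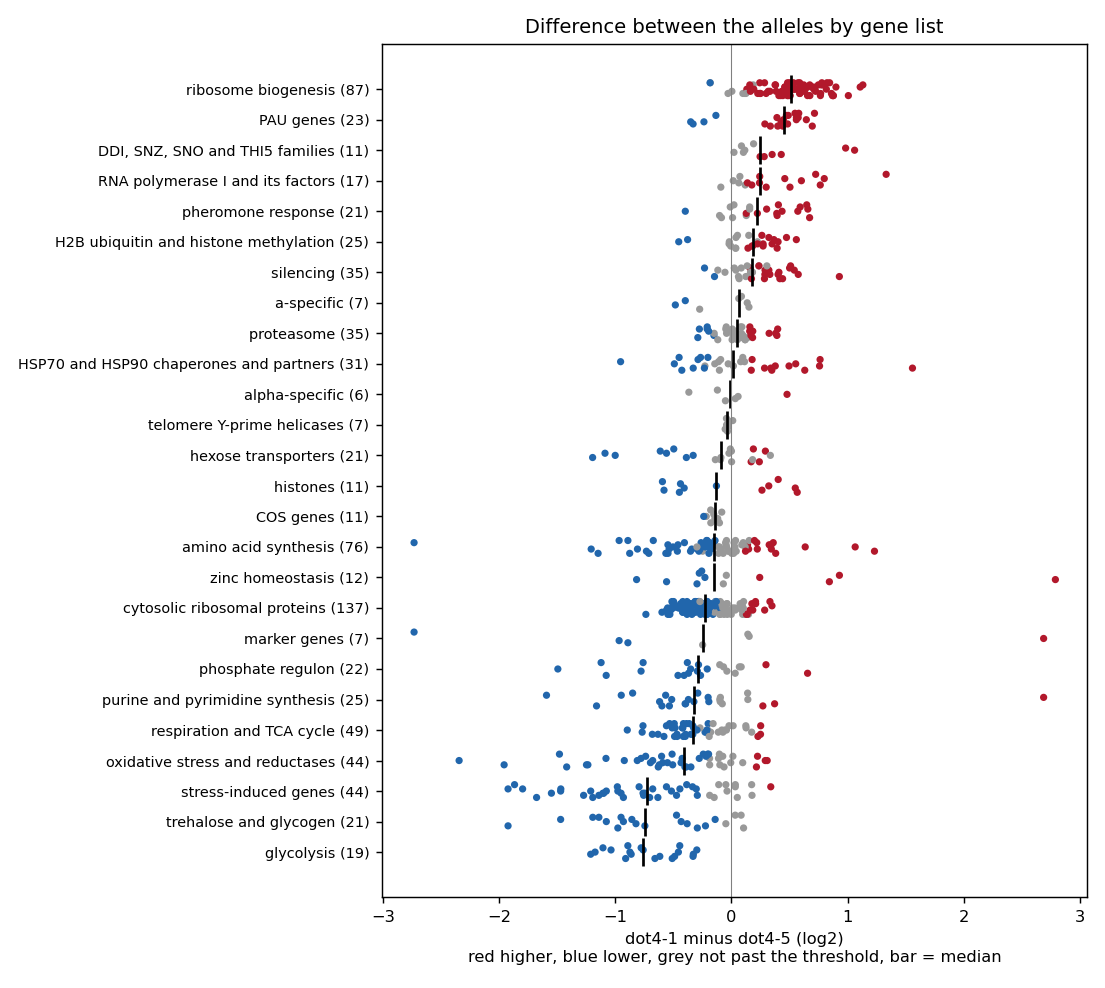
Difference between the alleles (dot4-1 minus dot4-5, log2) of each member of the gene lists, with the list median as a bar. Ribosome biogenesis genes lie mostly above 0, and glycolysis, storage carbohydrate and stress genes lie mostly below it.

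Stress-induced genes were lower in dot4-1. Of 44 genes induced by many stresses, 33 were lower and 1 higher, and the median difference was -0.73. SPI1, a cell wall protein gene, was at -1.76, -2.30 and -2.12 in dot4-1 and at -0.23, -0.24 and -0.10 in dot4-5 (difference -1.87, adjusted p = 3.72e-06). The gene was at -0.27 in the strain labelled null and at -1.07 in the untagged DOT4 strain, so a low ratio was not particular to dot4-1. APE1, a vacuolar aminopeptidase gene, differed by -1.80. HSP26, a small heat shock protein gene, was at -1.12, -1.86 and -1.57 in dot4-1 and at 0.12, 0.07 and 0.30 in dot4-5, a difference of -1.68. HSP31, which encodes a methylglyoxalase, differed by -1.55. YMR173W-A, an open reading frame that lies over the DNA damage gene DDR48, differed by -1.76.

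Reductases and detoxification genes held some of the lowest ratios in dot4-1. YNL134C, a reductase gene, was at -2.36, -3.02 and -2.96 in dot4-1 and at -0.39, -0.48 and -0.42 in dot4-5. Its difference was -2.35 (adjusted p = 3.31e-06), and the strain labelled null was at -2.55. GTT2, a glutathione transferase gene, was at -2.06, -2.46 and -2.65 against -0.43, -0.52 and -0.35 (difference -1.96, adjusted p = 3.46e-06). GRE2, a methylglyoxal reductase gene, was at -1.77, -2.06 and -1.97 against -0.53, -0.40 and -0.42 (difference -1.48). Against the reference, dot4-5 passed for GRE2 (adjusted p = 0.00748) but not for GTT2 (adjusted p = 0.226) or YNL134C (adjusted p = 0.493). The spread behind these p-values was shared by 4 strains. For GRE2, GTT2 and YNL134C in turn, the SD over sets was 0.23, 0.32 and 0.41 in the strain labelled null. It was 0.15, 0.30 and 0.36 in dot4-1 and 0.07, 0.09 and 0.05 in dot4-5. ATR1, a drug efflux gene, differed by -1.42 and YML131W by -1.25. Of 44 genes of oxidative stress and reductases, 30 were lower and 4 higher in dot4-1, a median difference of -0.41.

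Central carbon genes were lower in dot4-1 with few exceptions. All 19 glycolytic genes measured were lower, with a median difference of -0.76, and 12 of the 19 were lower with arrays scaled to a common spread. PGK1, phosphoglycerate kinase, was at -1.01, -1.32 and -1.32 in dot4-1 and at -0.10, 0.05 and -0.08 in dot4-5 (difference -1.18, adjusted p = 1.3e-05). GLK1, glucokinase, differed by -1.21 and TDH1, a glyceraldehyde phosphate dehydrogenase gene, by -1.04. Of 21 genes of trehalose and glycogen metabolism, 17 were lower and 0 higher by limma's test, a median difference of -0.75. PGM2, phosphoglucomutase, was at -2.12, -1.71 and -1.74 in dot4-1 and at 0.06, 0.06 and 0.08 in dot4-5 (difference -1.93, adjusted p = 3.27e-07). GLC3, the glycogen branching enzyme gene, differed by -1.47 and GPH1, glycogen phosphorylase, by -1.20.

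Genes of respiration were lower in part. Of 49 genes of respiration and the citric acid cycle, 31 were lower and 3 higher, a median difference of -0.33, and the citrate synthase genes CIT2 and CIT1 differed by -0.90 and -0.76. Of 21 hexose transporter genes, 8 were lower and 4 higher, a median of -0.09, which is close to the shares over all genes. HXT4 was at -1.24, -1.05 and -0.88 in dot4-1 and at 0.17, 0.13 and 0.12 in dot4-5 (difference -1.20). HXT6 and HXT7, near-identical high-affinity transporters, differed by -1.09 and -1.002. The 4 higher members had smaller differences, up to 0.29 for HXT12, which was named after its values were seen. The call of HXT12 was lost with scaled arrays (adjusted p = 0.180) and on leaving out some single sets.

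Genes of nutrient supply were lower in part. Of 22 genes of the phosphate regulon, 14 were lower and 2 higher in dot4-1, a median difference of -0.29, and with arrays scaled to a common spread 5 were lower and 2 higher, with a median of -0.08. PHO89, a phosphate transporter gene, was at -2.49, -1.36 and -1.47 in dot4-1 and between -0.37 and -0.20 in dot4-5 (difference -1.496, adjusted p = 0.000771). With scaled arrays the difference of PHO89 was -0.53 and did not pass (adjusted p = 0.130). PHM6 differed by -1.12 and PHO8, the vacuolar phosphatase gene, by -1.08. Of 76 genes of amino acid synthesis, 37 were lower and 14 higher, a median of -0.15 (21 lower and 11 higher with scaled arrays). HIS4 was lower by a difference of -1.15 and BAT2, a branched-chain aminotransferase gene, by -1.21, while CHA1 and SER3 were higher.

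Several purine genes were lower in dot4-1 than in dot4-5, with mean ratios below 0 in dot4-1 and above 0 in dot4-5. ADE17, which acts late in purine synthesis, was at -0.77, -1.43 and -1.37 in dot4-1 and at 0.26, 0.45 and 0.51 in dot4-5, a difference of -1.59 (adjusted p = 1e-05). ADE13 ran from -1.01 to -0.70 in dot4-1 and from 0.16 to 0.35 in dot4-5 (difference -1.16, adjusted p = 0.000432). ADE3 differed by -0.85. ADE1, named after its values were seen, was at -0.32, -0.36 and -0.41 in dot4-1 and at 0.20, 0.21 and 0.29 in dot4-5, a difference of -0.60. Against the reference dot4-5 passed for ADE1 (adjusted p = 0.00285) and not for ADE17 (adjusted p = 0.264), ADE13 or ADE3. ADE2, in contrast, was above 0 in both alleles, as given above. Of 25 purine and pyrimidine genes, 16 were lower and 3 higher in dot4-1, a median of -0.32, and URA1 differed by -0.95.

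Chaperone genes were called in both directions at about the share of all genes. Of 31 genes of Hsp70, Hsp90 and their partners, 12 were higher and 9 lower in dot4-1, a median difference of 0.02 (10 higher and 5 lower with scaled arrays). The Hsp90 partner genes CPR6 and STI1 differed by 0.76 and 0.63, and YDJ1, an Hsp40 gene, by 0.76. SSE2, an Hsp110 gene, was lower, at -0.90, -1.15 and -1.03 in dot4-1 and between -0.09 and -0.05 in dot4-5 (difference -0.96). Of 35 proteasome genes, 9 were higher and 6 lower, a median of 0.05 (5 higher and 0 lower with scaled arrays).

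The histone genes parted by histone. The genes of H2A and H2B were lower in dot4-1, and those of H3 and H4 were higher. HTA1, which encodes H2A, was at -0.58, -0.57 and -0.62 in dot4-1 and between -0.03 and 0.04 in dot4-5 (difference -0.59, adjusted p = 1.21e-05), and HTA2 differed by -0.58. HTB2, which encodes H2B, was at -0.35, -0.45 and -0.54 in dot4-1 and between -0.04 and 0.03 in dot4-5 (difference -0.45). HHF2, which encodes H4, was at 0.62, 0.62 and 0.63 in dot4-1 and at 0.01, 0.08 and 0.08 in dot4-5 (difference 0.57, adjusted p = 4.38e-06), and HHF1 differed by 0.55.

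Other histone genes were named after their values were seen. HTB1 differed by -0.44, and the H3 genes HHT1 and HHT2 differed by 0.32 and 0.26. HTZ1, of the H2A variant H2A.Z, differed by -0.41, CSE4, of the centromeric H3 variant, by 0.40, and HHO1, of linker histone H1, by -0.13 (adjusted p = 0.0424). In all, 5 of 11 were higher and 6 lower, and the adjusted p of HHO1 was the highest of the 11. The call of HHO1 was lost without centring (adjusted p = 0.232), with scaled arrays (0.185) and with the 2 alleles fitted alone (0.0617). It was also lost in either dye order alone. CSE4 lost its call with scaled arrays (adjusted p = 0.0598) and in Cy3 alone (0.179). In the strain labelled null, HTA1, HTA2, HTB1 and HTB2 were between -0.15 and -0.09, and HHF1 and HHF2 at 0.60 and 0.62. Copies of one histone are near-identical, so each pair may share signal.

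**Figure D5:**
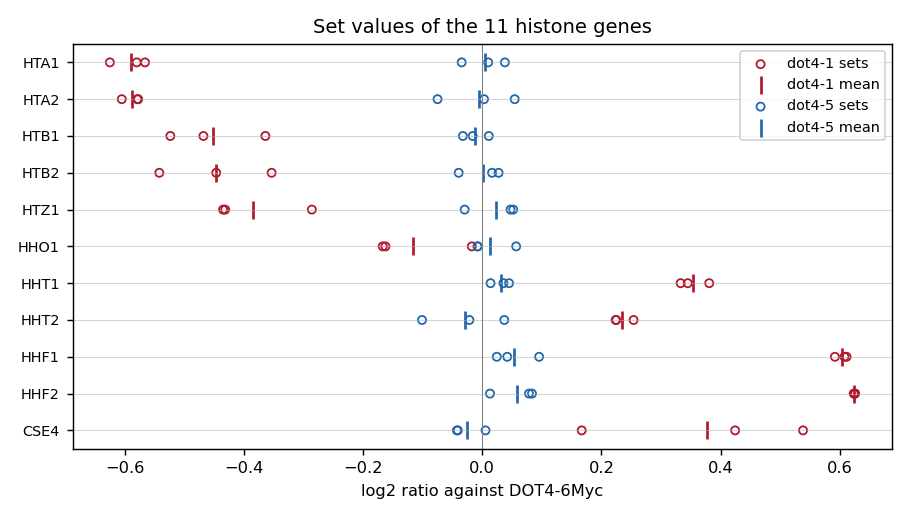
Log2 ratio to DOT4-6Myc of the histone genes in each of 3 sets of dot4-1 and dot4-5. H2A and H2B genes lie below 0 and H3 and H4 genes above 0 in dot4-1, while the dot4-5 sets lie near 0.

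Among genes of silencing and of the histone marks linked to H2B ubiquitin, more were higher than lower in dot4-1. Of 35 silencing genes, 17 were higher, 2 were lower and 16 did not pass, a median difference of 0.18. SIR3, which encodes a structural protein of silent chromatin, was at 0.31, 0.61 and 0.56 in dot4-1 and at 0.04, -0.10 and -0.08 in dot4-5 (difference 0.54, adjusted p = 0.00152). HST3, a histone deacetylase gene of the sirtuin family, differed by 0.93. RAP1, ABF1 and ORC1, whose proteins bind telomeres or silencers, differed by 0.50, 0.58 and 0.51. The partner genes SIR2 (difference 0.08, adjusted p = 0.214) and SIR4 (difference 0.12, adjusted p = 0.337), named after their values were seen, did not pass.

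Among 25 genes of H2B ubiquitination and histone methylation, 14 were higher and 2 lower, a median difference of 0.18 (9 higher and 1 lower with scaled arrays). BRE1, the ubiquitin ligase gene of H2B, was at 0.50, 0.57 and 0.58 in dot4-1 and at 0.05, -0.04 and -0.04 in dot4-5 (difference 0.56, adjusted p = 0.000336). DOT1, the H3 methyltransferase gene, was at 0.43, 0.36 and 0.61 against -0.06, 0.02 and 0.01 (difference 0.47, adjusted p = 0.000673). RTF1, of the Paf1 complex, and BRE2, of the Set1 complex, differed by 0.40 and 0.39. NHP6A, of a chromatin-binding protein, was lower, with a difference of -0.45.

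Mating genes were examined because silent mating loci can be expressed when silencing fails. Of 7 a-specific genes, 2 were lower and 0 higher in dot4-1 by limma's test, and of 6 alpha-specific genes, 1 was higher and 0 lower. Neither list held a larger share than all genes tested, of which 29.6% were higher and 31.4% lower. The median differences of the lists were 0.06 and -0.01. AGA2, an a-agglutinin subunit gene, was at 0.05, -0.67 and -0.50 in dot4-1 and at 0.05, 0.12 and 0.15 in dot4-5 (difference -0.48, adjusted p = 0.0357), with set 1 of the alleles almost level. Its call was lost with the alleles in Cy3 alone (adjusted p = 0.0668). It was also lost on leaving out any 1 set other than dot4-1 set 1 (adjusted p 0.0593 to 0.149). SAG1, alpha-agglutinin, was at 0.50, 0.39 and 0.49 against -0.05, 0.08 and -0.08 (difference 0.48, adjusted p = 0.000179). STE2, the receptor for alpha-factor, was at 0.54, 0.02 and 0.04 in dot4-1 and did not pass (adjusted p = 0.403). Of 21 pheromone response genes, 12 were higher and 1 lower (6 and 1 with scaled arrays), a median of 0.22, with SST2, a negative regulator of the pathway, at a difference of 0.66 and CIK1, a kinesin partner of karyogamy, at 0.67. The labels do not state the mating type of the strains.

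In some genes the sets of the 2 alleles lay on opposite sides of 0. Of 6195 genes tested, 311 called genes had the 3 dot4-1 sets above 0 and the 3 dot4-5 sets below it, and 346 had the reverse. Of the 64 genes that differed from the reference in dot4-5, RMD1 and ADE1 alone were among these. For the rest, the side of 0 in dot4-5 rests on values that did not pass against the reference. RMD1 was the one with the lowest dot4-5 ratio among those named, at 0.44, 0.52 and 0.50 in dot4-1 and at -0.73, -0.10 and -0.49 in dot4-5 (difference 0.93, adjusted p = 6.44e-05). INO1, of inositol synthesis, was at 0.63, 0.80 and 0.93 in dot4-1 and at -0.14, -0.20 and -0.09 in dot4-5 (difference 0.93). COM2, a transcription factor gene, differed by 0.94, NCE103, carbonic anhydrase, by 0.96 and DBF2, a kinase gene of mitotic exit, by 0.92. On the other side, BNA5, a kynureninase gene of NAD synthesis, was at -1.39, -1.65 and -1.71 in dot4-1 and at 0.01, 0.11 and 0.16 in dot4-5 (difference -1.68). MSC1 differed by -1.30 and ISF1 by -1.40. Of RMD1, INO1 and BNA5, RMD1 alone passed in dot4-5 against the reference (adjusted p = 0.0263), so the dot4-5 sign of the other two rests on values not told apart from 0.

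A few genes stood out more in dot4-5 than in dot4-1, and those given here were named after their values were seen. GEX1, a glutathione exchanger gene that lies near a chromosome end, was at -0.14, 0.04 and 0.01 in dot4-1 and at 0.43, 0.48 and 0.25 in dot4-5 (difference -0.42, adjusted p = 0.00184). YLR108C was at -0.16, -0.02 and -0.19 in dot4-1 and at -0.30, -0.48 and -0.34 in dot4-5 (difference 0.25, adjusted p = 0.007). The sets of the alleles did not overlap in either gene.

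The difference between the alleles was also compared between the dye orders. In 33 genes (0.533%) the allele difference with the alleles in Cy5 differed from that with them in Cy3 by the test, and 14 of the 33 were ribosomal protein genes. Scaling the arrays to 1 spread gave 813 such genes, against 69 without centring, 12 with the alleles fitted alone, 10 without dot4-1 set 3, 20 without dot4-1 set 1, 12 without dot4-5 set 1 and 17 without dot4-5 set 3. HTB2 was among the 33, with a difference of -0.27 in Cy5 and -0.63 in Cy3, below 0 in both. ADH4, given above, differed by nearly the same amount in both dye orders.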

How the data were processed

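In the deposited table, each of 6205 open reading frames has a value for each array, except in 83 empty cells of 148920. The authors deposited these values as log2 ratios of the 2 channels; the log2 scale was settled from the values, since the labels state none. How the arrays were made, scanned and normalized is not given in the sources used here. Array medians ran from -0.092 to 0.087 for dot4-1 and from -0.051 to 0.093 for dot4-5.

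The median of an array was subtracted from its values, the array was turned so that UBP10 lay below the reference in the null strain, and the 2 dye orders of a set were averaged. Set means of 4 strains entered a linear model with 1 mean per strain and 8 residual degrees of freedom (R 4.3.3, limma 3.58.1 with its moderated test). A gene needed values in both dye orders in at least 2 of 3 sets of every strain, which left out 10. The two-sided p-values were adjusted by Benjamini-Hochberg over the genes tested, and an adjusted p under 0.05 counts as passing. The fit was tested on simulated data. Both alleles share the reference strain. The sets are not stated to be separate cultures, so the spread behind the p-values, that between sets, may be technical, and the number of arrays limits the precision. The labels give sets the same numbers, but deviations of same-numbered sets correlated across genes at -0.118, -0.175 and 0.0457, so the numbers were not taken to pair the sets.

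Gene names and places came from RefSeq's table of the R64 assembly, which held 5705 of the identifiers and not the other 500. No coordinates are printed, because the deposited table names no build. Figures were drawn with matplotlib 3.10.9 in Python 3.11.15.

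The alleles, the gene lists and the rules were chosen with earlier results of these data known, so no list is independent evidence. The text names UBP10 and its neighbours, the 15 largest differences each way with sets that do not overlap, genes among the 5 largest of each list, those among the 8 largest each way on opposite sides of 0, those among the 8 largest in dot4-5, and 7 marker genes. Other genes are marked as named after their values were seen. The alternatives were no centring, arrays scaled to a common spread, a fit of the 2 alleles alone, a block for the set number, either dye order alone, separate arrays, genes with a value on every array, and leaving out each set. A planned search of promoters for motifs was not run.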

Additional observations from a re-analysis of the deposited data

Results flagged for a closer look

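The difference between the alleles differed between the 2 dye orders in 33 genes by limma's test of the allele difference in Cy5 minus that in Cy3, divided by 2, 32 with a positive and 1 with a negative value, among 644 with an unadjusted p under 0.05. Of the 33 genes, 21 also differed between the alleles.

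For HTB2, an H2B gene, this quantity was 0.18: the allele difference was -0.27 with the alleles in Cy5 and -0.63 with them in Cy3.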

How the results depend on the processing

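With every array scaled to a common spread, 2246 genes differed in place of 3779, with 1095 higher and 1151 lower, the differences of UBP10, ADH4, URA3, ADE2, YRF1-6 and YBL109W changed sign, to 0.10, -0.69, -0.27, -0.57, -1.13 and -0.41, and 0 of 7 YRF1 genes were higher and 7 lower. The scaling divides by a spread (MAD 0.301 to 0.415 on dot4-1 arrays, 0.0993 to 0.122 on dot4-5 arrays) and so enlarges dot4-5 ratios most. The median differences of the ribosome biogenesis, stress, glycolysis, ribosomal protein, PAU and phosphate lists kept their sign under it, while PAU genes higher in dot4-1 went from 19 to 8, phosphate genes lower from 14 to 5 and ribosomal protein genes lower from 93 to 44. UBP10 lost its call in Cy5 alone (-0.35, adjusted p = 0.0827), in Cy3 alone (-0.41, adjusted p = 0.103) and with separate arrays (-0.38, adjusted p = 0.0601). It kept its call with the 2 alleles fitted alone (-0.38, adjusted p = 0.00023). The cause was not tested. Leaving out each set in turn gave 3217 to 3710 genes, 1587 to 1795 higher and 1630 to 1915 lower, and differences of -0.40 to -0.35 for UBP10, 2.74 to 2.84 for ADH4, 2.55 to 2.80 for URA3 and -2.81 to -2.68 for HIS3; UBP10 kept its call without dot4-1 set 1. The dye-order count of 33 became 69 without centring, 813 with scaled arrays, 12 with the alleles alone and 10 to 40 without a set. The set number as a replicate block gave 3856 genes, with UBP10 at -0.38 (adjusted p = 0.0113). The other settings gave 3070 to 4076 genes. For the 125 named genes besides UBP10, ADH4, URA3 and HIS3, 1750 comparisons with an alternative were made. Of these, 1665 kept direction and call, and 39 lost and 25 gained the call in the same direction. In 3 the sign changed with a call in at least 1 of the fits compared (ADE2, YRF1-6 and YBL109W, above). In 18 the sign changed without a call in either fit. The motif search was not run. With 3 sets a side, the spread between sets limits each value.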
